A study of Mus musculus with 10 samples.

Results

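Interferon-stimulated genes were followed in the uterus of mice that over-express human HSD17B1, the enzyme that converts estrone to the more active estradiol. The 50 genes were chosen by name as classical members of the interferon response, with the IRF transcription factors left out. Earlier results of these data were known when the genes were chosen. All 50 are among the 29268 genes of the count table, and all 50 had enough counts to be among the 16993 genes tested, with no count under 7 in any mouse. Uterine mRNA of 5 HSD17B1TG and 5 WT females, all 4 months old, was sequenced in a library for each mouse, with 14817228 to 23271988 counts on genes per library. The HSD17B1TG mice are heterozygous FVB/N mice that carry human HSD17B1 cDNA under a CMV-enhanced chicken beta actin promoter, which is active in all tissues, and the WT mice lack the transgene. The table covers mouse genes, so the transgene itself was not measured here. Per the study's text, HSD17B1TG females do not cycle, and WT uteri for its histology were taken at random phases of the cycle. The phase of the sequenced WT mice is not given in the sources used here, so genotype and cycle phase cannot be told apart. The animals are named here TG1 to TG5 and WT1 to WT5 by rising number in the labels. Mitochondrial genes took 1.94 to 7.57% of the counts in HSD17B1TG and 2.58 to 3.37% in WT, and the 10 most abundant genes 6.97 to 12.5% and 5.18 to 6.15%.

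Interferons are secreted proteins that cells release when they sense foreign or misplaced nucleic acid, and some are also made without infection. Type I and type III interferons bind their receptors, activate the kinases JAK1 and TYK2, and lead to a complex with STAT2 and IRF9 that binds the interferon-stimulated response element (ISRE) in gene promoters. Type II interferon acts on a different element, GAS. The genes switched on in this way encode sensors of viral RNA, enzymes that block or degrade it, the ubiquitin-like protein ISG15, and GTPases that act on intracellular pathogens. In the uterus the response is known from early pregnancy and from interferon epsilon, a type I interferon of the epithelium of the female reproductive tract.

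The element that many of the 50 genes share is shown first. The RefSeq promoter table for GRCm38.p6, which is the C57BL/6J reference and not FVB/N sequence, had an entry for 38 of the 50 genes. In the 250 bases before the start, 17 of the 38 held an ISRE core, which is GAAANNGAAA on either strand with N for any base, against 3.46% of the 27025 genes in the table. The GAS motif, TTCNNNGAA, was present in 9 of the 38 and in 8.13% of all genes. It overlapped an ISRE core by a few bases in *Bst2*. These are matches of letters and not measured sites. The genes without an entry are *Oas2*, *Usp18*, *Dhx58*, *Zbp1*, *Mx1*, *Mx2*, *Iigp1*, *Parp9*, *Parp14*, *Ifi27l2a*, *Ifi27* and *Rtp4*.

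The windows below give the 120 bases before the RefSeq start of 8 genes with an ISRE core, read in the direction of transcription, with the cores in capitals. They were chosen to run from OAS and ISG15 genes with large differences in level through *Gbp7*, which hardly differed, to *Rsad2*, which was lower. The windows are chr4:156200819-156200938, chr5:120907526-120907645, chr5:120777660-120777779, chr7:104465194-104465313 and chr12:26456453-26456572 on the minus strand, and chr19:34640769-34640888, chr11:58199436-58199555 and chr3:142530216-142530335 on the plus strand.
Isg15: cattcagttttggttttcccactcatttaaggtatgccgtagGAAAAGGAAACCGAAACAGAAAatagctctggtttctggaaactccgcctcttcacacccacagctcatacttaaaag
Oas1a: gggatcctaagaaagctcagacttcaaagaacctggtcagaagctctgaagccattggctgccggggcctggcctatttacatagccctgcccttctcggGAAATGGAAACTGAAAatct
Oas3: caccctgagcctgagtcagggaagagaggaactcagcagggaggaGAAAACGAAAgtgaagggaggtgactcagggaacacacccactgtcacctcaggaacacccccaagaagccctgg
Ifit1: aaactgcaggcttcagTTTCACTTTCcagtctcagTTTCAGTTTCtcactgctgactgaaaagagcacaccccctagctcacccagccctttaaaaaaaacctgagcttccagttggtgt
Trim30a: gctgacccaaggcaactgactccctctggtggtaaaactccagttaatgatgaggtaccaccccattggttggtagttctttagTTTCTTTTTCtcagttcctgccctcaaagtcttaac
Igtp: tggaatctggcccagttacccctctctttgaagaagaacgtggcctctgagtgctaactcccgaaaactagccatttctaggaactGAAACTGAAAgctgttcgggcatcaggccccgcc
Gbp7: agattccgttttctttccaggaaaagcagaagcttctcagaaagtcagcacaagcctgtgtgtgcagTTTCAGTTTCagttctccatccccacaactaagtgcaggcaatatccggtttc
Rsad2: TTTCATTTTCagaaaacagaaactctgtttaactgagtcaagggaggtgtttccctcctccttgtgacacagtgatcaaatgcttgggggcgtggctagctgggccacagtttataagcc

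*Isg15* held 3 overlapping cores in a row, the first of which starts at position -78, where -1 is the base before the start. *Oas1a* had 2 overlapping cores starting at -20 and -14, and *Oas3* had 1 at -75. In *Ifit1*, *Trim30a*, *Gbp7* and *Rsad2* the capitals are the reverse complement, so that the core lies on the other strand. Among the 17 genes with a core, the log2 fold change of HSD17B1TG against WT ran from -1.05 in *Rsad2* to 3.12 in *Oas3*, with a median of 1.31. The 21 genes with an entry and without a core had a median of 0.66 and ran from -0.55 to 2.96. The ranges of both sets overlap over most of their length. Of the 17 genes with a core 2 passed the adjusted test (*Trim30a* and *Stat2*), and of the 21 without a core 4 did (*Oasl2*, *Parp12*, *Sp100* and *Uba7*). Of all genes tested, 3.34% were higher in HSD17B1TG at an adjusted p under 0.05. *Oas2*, *Parp14*, *Ifi27l2a* and *Ifi27* also passed but have no promoter entry, so they are in neither set. The sets were not compared by a test.

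Interferon-stimulated genes were mostly higher in the HSD17B1TG uterus, and the size of the difference varied greatly between families. The log2 fold change was above 0 in 44 of the 50 genes, against 50.2% of all genes tested, and its median was 1.03, against 0.00 over all genes. The OAS family stood at the top with a median of 2.68, and the group of Mx proteins and other antiviral effectors at the bottom with a median of -0.04. A gene was called when its adjusted p in edgeR's quasi-likelihood test was under 0.05, its fold change over 2 and its mean FPKM over 1 in either group. These are the thresholds of the study's methods, where the test was DESeq2 and not edgeR. FPKM is a level per length, the number of fragments per kilobase of transcript scaled by the size of the library. By this rule 6 of the 50 genes rose, *Ifi27l2a*, *Trim30a*, *Parp14*, *Oas2*, *Sp100* and *Oasl2*, against 2.16% of all genes tested. None of the 50 was called down in edgeR or in DESeq2, against 2.08% of all genes in edgeR and 3.28% in DESeq2, and 1 gene, *Rsad2*, was lower at an unadjusted p under 0.05.

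Without the threshold on fold change, 10 of the 50 rose at an adjusted p under 0.05, against 3.34% of all genes, and 0 fell, against 2.81%. The other four were *Parp12*, *Ifi27*, *Stat2* and *Uba7*. A further 21 genes had an adjusted p from 0.05 to 0.10. At an unadjusted p under 0.05 there were 37 genes, 36 higher and 1 lower, against 26.1% of all genes in either direction. With DESeq2's Wald test 26 of the 50 were called up, against 4.48% of the 20580 genes with an adjusted p in DESeq2. The exact two-sided permutation test on log2(FPKM + 1) gave a p under 0.05 for 35 of the 50, against 24.1% of all genes, and the smallest p that 5 mice against 5 allow is 0.00794. All 5 HSD17B1TG mice were above all 5 WT mice in 6 genes, *Oas2*, *Parp12*, *Parp14*, *Ifi27l2a*, *Ifi27* and *Sp100*, against 4.04% of all genes, and no gene of the list was below without overlap, against 2.65%. The p-values rest on the spread between mice, since each library is a separate animal.

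**Figure D1:**
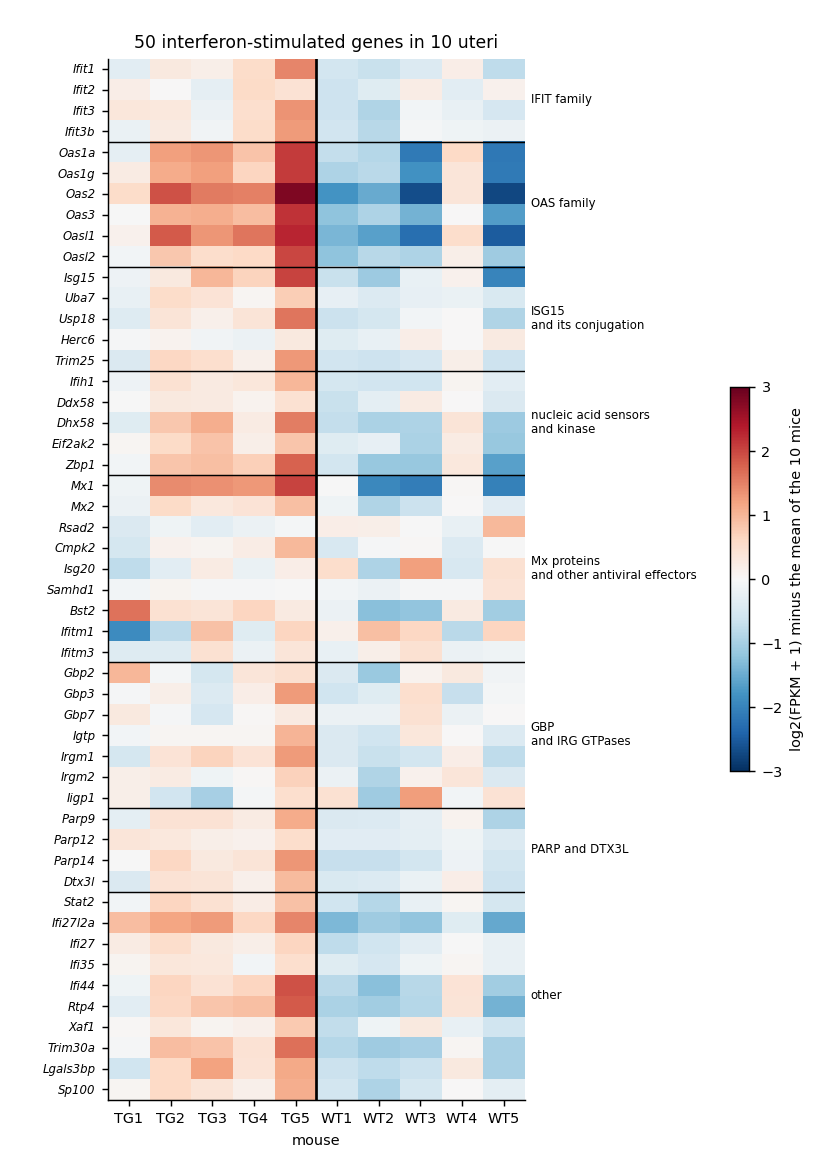
Level of the 50 interferon-stimulated genes (rows, by role) in each of the 10 mice (columns). The colour is log2(FPKM + 1) in a mouse minus the mean of the 10 mice, red above and blue below. TG5 is the reddest column, TG1 and WT4 are the palest, and *Rsad2*, *Isg20*, *Ifitm1* and *Iigp1* do not follow the pattern of the other rows.

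The count of called genes depended on single mice. Without TG1, 25 of the 50 genes were called up, against 4.42% of all genes tested, and without WT4, 26, against 5.12%. Without TG3 there were 7, against 2.12%. Without any one of TG2, TG4, TG5, WT1, WT2, WT3 and WT5, only *Ifi27l2a* was called, against 0.219 to 0.579% of all genes. *Ifi27l2a* was the only gene of the list that was called in each of the 10 fits with 1 mouse left out. With an adjusted p under 0.05 as the only threshold, the count ran from 1 to 30 over these fits. The median log2 fold change of the 50 genes moved less, from 0.79 without TG5 to 1.23 without WT4.

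The highest and the lowest HSD17B1TG mouse and the highest WT mouse were the same in most genes of the list. TG5 had the highest FPKM of the HSD17B1TG mice in 40 of the 50 genes and TG1 the lowest in 37. WT4 had the highest FPKM of the WT mice in 34. TG1 was not above all WT mice in 40 genes and was below WT4 in 35. The other four HSD17B1TG mice were all above all WT mice in 26 genes, against 9.13% of all genes.

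The same mice were also the highest and lowest in markers of epithelium. The summed FPKM of *Epcam*, *Cdh1*, *Krt8*, *Krt18*, *Krt19* and *Cldn4* was 551, 1841, 1993, 1536 and 2535 in TG1 to TG5 and 824, 629, 369, 1381 and 392 in WT1 to WT5. TG5 was the highest and TG1 the lowest of the HSD17B1TG mice, and WT4 was the highest of the WT mice, as in the interferon-stimulated genes. The order of the other WT mice was not the same, since WT3 followed WT4 in the interferon-stimulated genes and had the lowest sum of epithelial markers. None of the 6 markers had an adjusted p under 0.05 in edgeR, and their log2 fold changes ran from 0.85 to 1.56, all above 0. All 6 had an unadjusted p under 0.05 in edgeR, and *Cdh1* and *Cldn4* were called up in DESeq2. In bulk tissue, more cells of a type and more RNA per cell cannot be told apart. The part of tissue composition in the differences between groups was not tested.

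**Figure D2:**
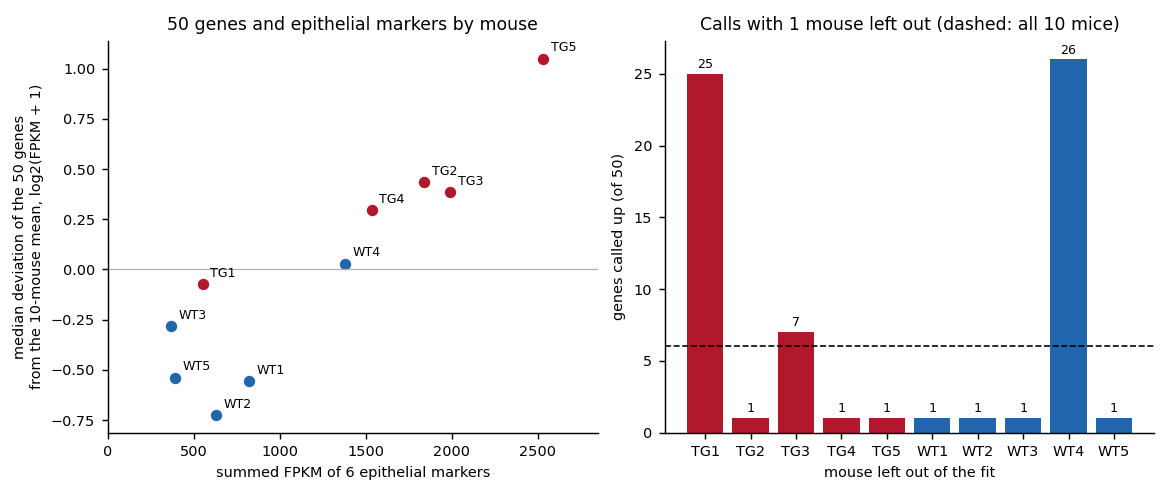
Left, the median deviation of the 50 genes from the mean of the 10 mice on the log2(FPKM + 1) scale against the summed FPKM of 6 epithelial markers, 1 labelled point per mouse, red for HSD17B1TG and blue for WT. Right, the number of the 50 genes called up when 1 mouse is left out, with the 6 calls of all 10 mice as a dashed line. Leaving out TG1 or WT4 gives 25 or 26 calls, and leaving out most of the other mice gives 1.

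The OAS family encodes enzymes that, once they bind double-stranded RNA, make short oligoadenylate chains that activate RNase L, together with the OAS-like proteins. All 6 genes had log2 fold changes over 1, from 1.79 to 3.21, and 2 of the 6 rose by the full rule, against 2.16% of all genes tested. *Oas2* (ENSMUSG00000032690, chromosome 5 from 120730333 to 120749853 of GRCm38) was at 23.2, 61.5, 47.6, 46.0 and 114 FPKM in TG1 to TG5 and at 3.77, 4.80, 1.60, 20.1 and 1.49 FPKM in WT1 to WT5. The lowest HSD17B1TG mouse, TG1, was just above the highest WT mouse, WT4, and the other mice were far apart. The mean was 58.5 ± 34.0 FPKM in HSD17B1TG against 6.35 ± 7.81 FPKM in WT (SD, n = 5 each) (log2 fold change 3.21, standard error 0.75, adjusted p = 0.0384). Without WT4 the log2 fold change of *Oas2* was 4.32. *Oasl2* (ENSMUSG00000029561, chromosome 5 from 114896936 to 114912234) was at 8.76, 17.1, 13.7, 14.5 and 40.0 FPKM in TG1 to TG5 and at 3.48, 4.79, 4.43, 10.6 and 3.90 in WT1 to WT5 (log2 fold change 1.79, standard error 0.44, adjusted p = 0.0416). Here TG1 lay below WT4, and the other mice did not overlap. The other four, *Oas1a*, *Oas1g*, *Oas3* and *Oasl1*, had log2 fold changes of 2.04 to 3.12 with adjusted p of 0.0502 to 0.0764, and in each of them TG1 was the only HSD17B1TG mouse that was not above all WT mice. By the median SD of log2(FPKM + 1), the WT mice spread more in this family (1.06) than over the whole list (0.39), for example from 0.0553 FPKM in WT5 to 2.38 FPKM in WT4 in *Oas3*. *Oas1a*, *Oas1g*, *Oas2* and *Oas3* lie within 177189 bases of chromosome 5, and reads that match both *Oas1a* and *Oas1g* cannot be assigned with certainty.

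The IFIT proteins bind viral RNA and block its translation. None of the 4 genes passed the adjusted test, and the log2 fold changes were 0.51 to 1.48. *Ifit3* was at 2.83, 2.77, 1.71, 3.34 and 6.77 FPKM in TG1 to TG5 and at 0.979, 0.633, 1.88, 1.61 and 1.15 in WT1 to WT5 (log2 fold change 1.47, standard error 0.42, adjusted p = 0.0598). Only TG3 overlapped the WT mice. *Ifit1* was at 1.82, 3.25, 2.92, 4.13 and 8.66 FPKM in TG1 to TG5 and at 1.39, 1.21, 1.63, 2.99 and 1.05 in WT1 to WT5 (log2 fold change 1.33, standard error 0.44, adjusted p = 0.0900). TG1 and TG3 were below WT4 and above the other WT mice. TG5 was the highest mouse in *Ifit1*, *Ifit3* and *Ifit3b*, and without it the log2 fold change of *Ifit1* was 0.87. The 4 genes lie side by side on chromosome 19 from 34550694 to 34650009, and *Ifit3* and *Ifit3b* are close copies whose reads may be split between them.

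ISG15 is a ubiquitin-like protein that is secreted and is also attached to other proteins through UBA7, which activates it, and through ligases such as HERC6, and USP18 removes it. *Isg15* (ENSMUSG00000035692, chromosome 4 from 156199424 to 156200818) was at 11.6, 16.3, 27.3, 21.6 and 56.3 FPKM in TG1 to TG5 and at 7.91, 5.57, 10.99, 14.4 and 2.58 in WT1 to WT5 (log2 fold change 1.68, standard error 0.51, adjusted p = 0.0718). Only TG1 overlapped the WT mice, and the spread was 5.58-fold among WT and 4.84-fold among HSD17B1TG mice. *Uba7* rose at log2 fold change 0.74, standard error 0.19, adjusted p = 0.0481, with 6.65, 12.2, 10.8, 8.26 and 14.0 FPKM in TG1 to TG5 and 6.55, 5.74, 6.51, 6.70 and 5.48 in WT1 to WT5. The WT mice lay close together, and TG1 was within their range. The adjusted p of *Uba7* was not under 0.05 in 4 of the alternatives that kept all 10 mice, those with upper quartile or library size scaling, no filter, or limma voom. The other three were *Usp18*, *Trim25* and *Herc6*, with log2 fold changes of 0.03 to 1.27 and none past the adjusted test. *Herc6*, at 0.03, was below 0 with upper quartile or library size scaling and without a filter.

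The sensors of nucleic acid were all higher in HSD17B1TG on average, with log2 fold changes of 0.48 to 2.01, and none passed the adjusted test. They include the RIG-I-like receptors *Ddx58*, *Ifih1* and *Dhx58*, the kinase PKR (*Eif2ak2*), which stops translation when it binds double-stranded RNA, and *Zbp1*, which recognises Z-form nucleic acid. *Ifih1* was at 1.81, 3.32, 2.75, 2.99 and 5.30 FPKM in TG1 to TG5 and at 1.17, 1.11, 1.06, 2.32 and 1.53 in WT1 to WT5 (log2 fold change 1.17, standard error 0.31, adjusted p = 0.0514). *Zbp1* was at 3.77, 7.98, 8.42, 7.19 and 16.2 FPKM in TG1 to TG5 and at 2.42, 1.28, 1.27, 5.20 and 0.623 in WT1 to WT5 (log2 fold change 2.01, standard error 0.56, adjusted p = 0.0553). In both genes TG1 was the only HSD17B1TG mouse below WT4, and without WT4 the log2 fold change of *Zbp1* was 2.63. The other three had log2 fold changes of 0.48, 1.01 and 1.63, in the order *Ddx58*, *Eif2ak2* and *Dhx58*, with adjusted p of 0.161, 0.0624 and 0.0648.

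The group of Mx proteins and other antiviral effectors held the widest range, with 4 log2 fold changes above 0 and 5 below, and none of its 9 genes passed the adjusted test. *Mx1*, a GTPase that traps viral ribonucleoproteins, was at 5.37, 17.6, 17.0, 16.2 and 27.1 FPKM in TG1 to TG5 and at 5.89, 0.807, 0.655, 6.13 and 0.709 in WT1 to WT5 (log2 fold change 2.55, standard error 0.73, adjusted p = 0.0612). TG1 was slightly below WT1 and WT4, and the other WT mice were under 1 FPKM. *Bst2*, or tetherin, which holds budding virus at the membrane, was at 646, 287, 276, 328 and 252.2 FPKM in TG1 to TG5 and at 186, 87.7, 91.8, 253 and 101 in WT1 to WT5 (log2 fold change 1.31, standard error 0.37, adjusted p = 0.0564). In *Bst2* the order of the HSD17B1TG mice was turned round, with TG1 the highest of all mice and TG5 the lowest of its group, at about the level of WT4. The others above 0 were *Mx2* at 1.13 and *Cmpk2* at 0.59.

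*Rsad2* (viperin), an enzyme that makes a chain-terminating ribonucleotide, had the lowest log2 fold change of the 50 genes. It was at 0.421, 0.743, 0.539, 0.687 and 0.845 FPKM in TG1 to TG5 and at 1.20, 1.17, 0.915, 0.648 and 2.74 in WT1 to WT5 (log2 fold change -1.05, standard error 0.40, adjusted p = 0.125; exact permutation p = 0.0397). WT4 lay within the range of the HSD17B1TG mice, and without WT5, the highest WT mouse, the log2 fold change was -0.63. *Cmpk2*, a nucleotide kinase, is the neighbour of *Rsad2* on chromosome 12, with 12751 bases between the 2 genes, and was at 1.34, 2.68, 2.58, 2.93 and 5.56 FPKM in TG1 to TG5 and at 1.42, 2.29, 2.41, 1.52 and 2.35 in WT1 to WT5. The ratio of *Cmpk2* to *Rsad2* FPKM was 3.19, 3.61, 4.78, 4.27 and 6.58 in TG1 to TG5 and 1.18, 1.96, 2.64, 2.35 and 0.857 in WT1 to WT5. This ratio was higher in all 5 HSD17B1TG than in all 5 WT mice. It was computed after the values of both genes had been seen and is given as a description, with no test. The other four below 0 were the exonuclease *Isg20* at -0.55, *Ifitm1* at -0.42, the dNTP hydrolase *Samhd1* at -0.06 and *Ifitm3* at -0.04, with adjusted p from 0.458 to 0.929. The IFITM proteins block the fusion of virus with the membrane, and *Ifitm3* had the highest level of the 50 genes per length, with 599 ± 173 FPKM in HSD17B1TG against 612 ± 128 FPKM in WT (SD, n = 5 each).

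**Figure D3:**
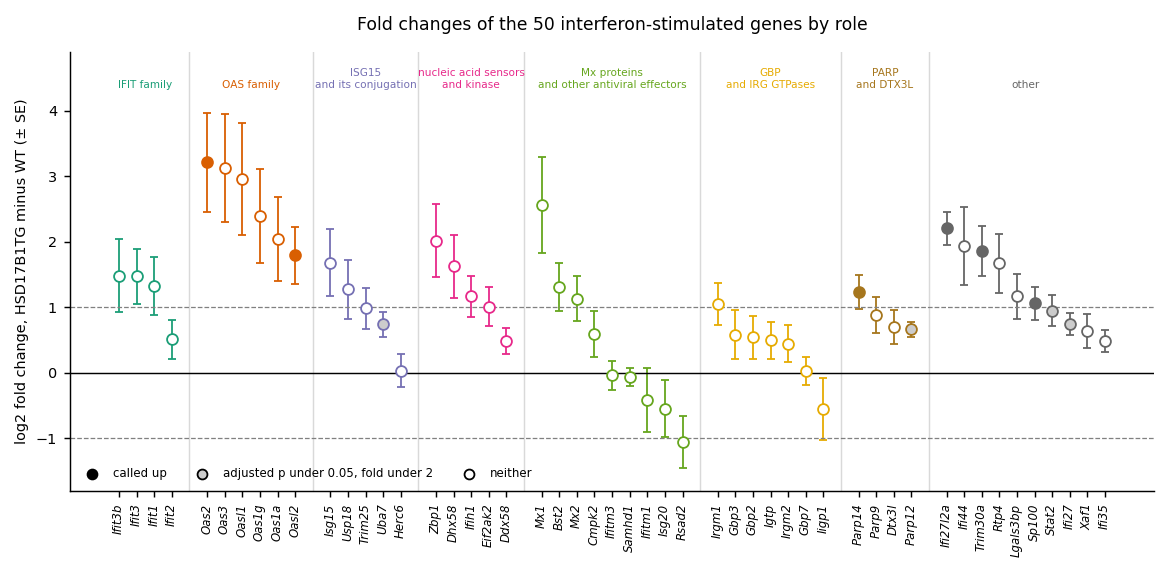
Log2 fold change of HSD17B1TG against WT (points, with the standard error as bars) for the 50 genes, grouped by role and ordered within each role. Filled points are the 6 genes called up, grey points the 4 with an adjusted p under 0.05 and a fold change under 2, open points the rest, and dashed lines mark a fold change of 2. The OAS genes lie between 1.79 and 3.21, and *Rsad2* is the lowest at -1.05.

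The GBP and IRG GTPases, which act on the vacuoles of intracellular pathogens and are known above all as targets of type II interferon, had a median log2 fold change of 0.50, under the 1.03 of the whole list. None of the 7 genes passed the adjusted test. *Irgm1* had the highest log2 fold change and was at 6.98, 14.2, 17.3, 14.2 and 27.0 FPKM in TG1 to TG5 and at 7.49, 6.22, 6.84, 12.1 and 5.77 in WT1 to WT5 (log2 fold change 1.05, standard error 0.33, adjusted p = 0.0752). TG1 was within the range of the WT mice and the other HSD17B1TG mice were above it. *Igtp* was at 9.71, 10.7, 10.7, 10.7 and 21.7 FPKM in TG1 to TG5 and at 7.30, 6.43, 13.2, 10.4 and 7.53 in WT1 to WT5 (log2 fold change 0.50, standard error 0.28, adjusted p = 0.290). TG5 stood alone at the top and the others overlapped. *Igtp* overlaps *Irgm2* on the same strand over 7974 bases, so reads there could belong to either gene. *Gbp7* was the gene nearest to no difference, with 6.57, 5.06, 3.40, 5.38 and 6.42 FPKM in TG1 to TG5 and 4.54, 4.45, 7.52, 4.53 and 5.21 in WT1 to WT5 (log2 fold change 0.03, standard error 0.22, adjusted p = 0.953). Its log2 fold change lay between -0.16 and 0.17 over the alternative fits. Of the other four, *Gbp2*, *Gbp3* and *Irgm2* were at 0.44 to 0.58 and *Iigp1* at -0.55, with adjusted p of 0.320 to 0.499.

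The PARP and DTX3L genes encode ADP-ribosyltransferases and the ubiquitin ligase that pairs with PARP9. All 4 log2 fold changes were above 0, from 0.66 to 1.23. At an adjusted p under 0.05, 2 of the 4 rose, against 3.34% of all genes tested. *Parp14* (ENSMUSG00000034422, chromosome 16 from 35832874 to 35871544) was at 8.84, 14.4, 11.2, 11.9 and 23.9 FPKM in TG1 to TG5 and at 5.10, 5.16, 5.82, 7.99 and 5.76 in WT1 to WT5 (log2 fold change 1.23, standard error 0.26, adjusted p = 0.0292). The groups did not overlap, and TG1 and WT4 were the mice nearest to each other. *Parp12* (ENSMUSG00000038507, chromosome 6 from 39086410 to 39118349) was at 15.5, 14.7, 13.5, 12.9 and 17.4 FPKM in TG1 to TG5 and at 8.99, 9.03, 9.37, 10.7 and 8.53 in WT1 to WT5 (log2 fold change 0.66, standard error 0.12, adjusted p = 0.0212). The mice of each group lay close together, within 1.35-fold in HSD17B1TG and 1.25-fold in WT, and the groups did not overlap although the difference was under 2-fold. *Parp9* and *Dtx3l* had log2 fold changes of 0.88 and 0.70 with adjusted p of 0.0785 and 0.126. They overlap by 682 bases on opposite strands, and the strand setting of the counting is not given in the sources used here.

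The remaining 10 genes all had log2 fold changes above 0, from 0.49 to 2.21. Of these, 5 rose at an adjusted p under 0.05 and 3 by the full rule, against 3.34% and 2.16% of all genes tested. *Ifi27l2a* (ENSMUSG00000079017, chromosome 12 from 103442167 to 103443680), which encodes a small hydrophobic protein of the ISG12 family, was at 89.4, 107, 113, 71.9 and 129 FPKM in TG1 to TG5 and at 17.7, 21.7, 19.7, 35.9 and 15.4 in WT1 to WT5. TG4, the lowest HSD17B1TG mouse, was far above WT4, the highest WT mouse, and TG1 was not the lowest of its group. The mean was 102 ± 22.2 FPKM in HSD17B1TG against 22.1 ± 8.05 FPKM in WT (SD, n = 5 each), and the log2 fold change was 2.21 with a standard error of 0.25 (adjusted p = 0.00956). By its p it ranked 4 of the 16993 genes tested. The call held without any single mouse, with log2 fold changes of 2.08 to 2.45.

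*Trim30a* (ENSMUSG00000030921, chromosome 7 from 104409025 to 104465193), a ubiquitin ligase of the TRIM family, was at 5.55, 11.6, 11.2, 8.13 and 20.2 FPKM in TG1 to TG5 and at 2.68, 2.23, 2.34, 5.94 and 2.42 in WT1 to WT5 (log2 fold change 1.86, standard error 0.38, adjusted p = 0.0279). TG1 was slightly below WT4 and the other mice were apart. *Sp100* (ENSMUSG00000026222, chromosome 1 from 85649988 to 85709998), a protein of the PML nuclear bodies, was at 7.77, 11.6, 9.97, 8.35 and 16.8 FPKM in TG1 to TG5 and at 4.68, 3.40, 4.78, 7.38 and 5.83 in WT1 to WT5 (log2 fold change 1.06, standard error 0.25, adjusted p = 0.0396). The groups did not overlap. The call was lost with upper quartile or library size scaling, where the log2 fold change was 0.97 and 0.88 and the fold change thus under 2. *Ifi27*, which lies 1927 bases from *Ifi27l2a* on chromosome 12 and resembles it in sequence, also rose without overlap (92.6 ± 13.2 FPKM in HSD17B1TG against 55.1 ± 11.7 FPKM in WT (SD, n = 5 each); log2 fold change 0.74, standard error 0.17, adjusted p = 0.0344). Reads could also be shared between these neighbours, between the Gbp genes, and between *Trim30a* and its relatives. *Stat2*, the STAT protein that is particular to type I and type III signalling, rose at log2 fold change 0.95, standard error 0.24, adjusted p = 0.0444, and TG1 was below WT4 alone. The other five, *Ifi35*, *Ifi44*, *Rtp4*, *Xaf1* and *Lgals3bp*, had log2 fold changes of 0.49 to 1.93 and adjusted p of 0.0531 to 0.157.

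**Figure D4:**
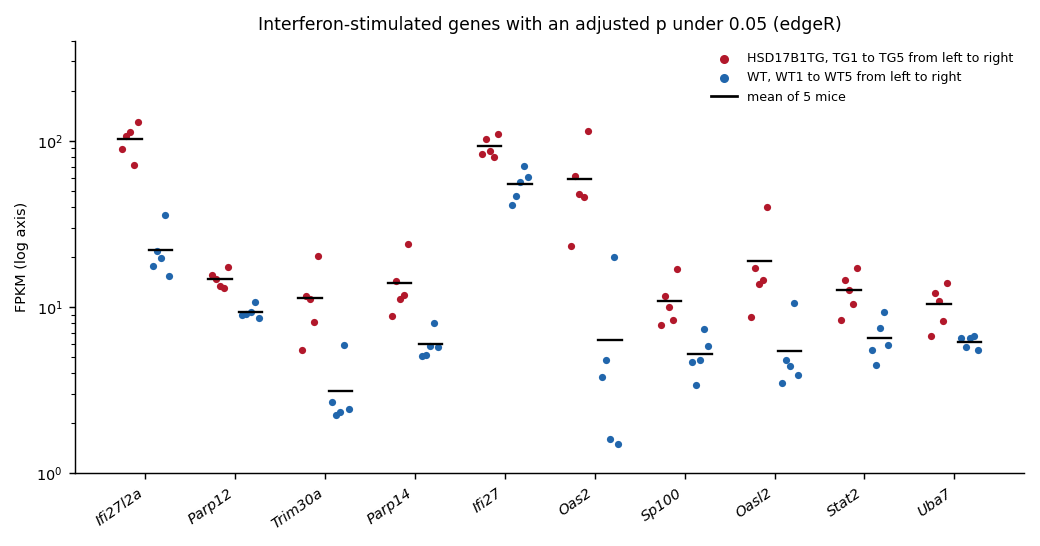
FPKM (log axis) of the 10 interferon-stimulated genes with an adjusted p under 0.05, ordered by adjusted p, in each mouse. Red points are the HSD17B1TG mice, blue points the WT mice, each in the order of their numbers, and black lines the means of 5 mice. *Ifi27l2a* and *Parp12* show clear gaps between the groups, and in *Uba7*, *Stat2*, *Oasl2* and *Trim30a* the point of TG1 lies below the highest WT mouse, WT4.

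Most of the 50 genes were at low to moderate levels in WT. The mean was under 1 FPKM in 2 genes (*Ifit3b* and *Oas3*), over 10 FPKM in 9 and over 50 FPKM in 4 (*Ifitm3*, *Bst2*, *Ifitm1* and *Ifi27*). In HSD17B1TG, 29 genes were over 10 FPKM and 7 over 50 FPKM, and only *Rsad2* was under 1. The level did not mark the families that differed, since *Ifitm3* and *Ifitm1* were among the highest and had log2 fold changes near or below 0, while *Bst2* and *Ifi27l2a* were also high and had 1.31 and 2.21. The median SD of log2(FPKM + 1) over the 50 genes was 0.54 in HSD17B1TG and 0.39 in WT, against 0.29 and 0.25 over all genes tested, which were not matched to the 50 in level, on which this SD depends. In the PARP and DTX3L genes the SD was larger in HSD17B1TG in all 4, and in the OAS family it was larger in WT in 4 of 6.

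The genes that make and carry the interferon signal were read from a list of 43 ligands, receptors, kinases, IRFs, sensors and negative regulators. Of these, 37 were in the table and 34 were tested. By the full rule 2 were called up, *Irf7* and *Ifngr2*, and 0 down, and 1 more, *Ikbke*, rose at an adjusted p under 0.05. The shares of all genes tested were 2.16% called up and 3.34% higher at an adjusted p under 0.05. At an unadjusted p under 0.05, 14 were higher and 2 lower, against 26.1% of all genes in either direction. The median log2 fold change of the 34 was 0.20. The count of calls also depended on single mice, with 4 calls without TG1 or without WT4, 3 without TG3, 0 without WT2 and 1 without each of the others, where the shares of all genes called up were 4.42%, 5.12%, 2.12%, 0.221% and 0.219 to 0.579%.

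Among the ligands, *Ifne* (ENSMUSG00000045364, chromosome 4 from 88879538 to 88880201) was the only interferon gene with enough counts to be tested. It was at 8.16, 29.5, 16.6, 17.8 and 48.0 FPKM in TG1 to TG5 and at 2.63, 0.793, 0.187, 8.24 and 4.41 in WT1 to WT5. TG1 was just below WT4, and the other HSD17B1TG mice were above all WT mice. The mean was 24.0 ± 15.4 FPKM in HSD17B1TG against 3.25 ± 3.24 FPKM in WT (SD, n = 5 each), and the difference did not pass the adjusted test (log2 fold change 2.88, standard error 0.80, adjusted p = 0.0564; exact permutation p = 0.0159). Without WT4 the log2 fold change was 3.56, and its adjusted p was then under 0.05, as it was without TG1 and, with all 10 mice, in DESeq2 (adjusted p = 0.00202) and limma voom. *Ifng*, *Ifnk* and *Ifnz* had at most 15, 2 and 6 counts in any mouse and were not tested. The genes *Ifna1*, *Ifna2*, *Ifna4*, *Ifnb1*, *Ifnl2* and *Ifnl3* were not analysed here.

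The log2 fold changes of the receptor chains lay on both sides of 0. *Ifngr2*, the signalling chain of the type II receptor, rose from 15.3, 12.6, 13.2, 19.6 and 12.3 FPKM in WT1 to WT5 to 20.1, 36.1, 27.1, 36.3 and 72.7 in TG1 to TG5 (log2 fold change 1.40, standard error 0.31, adjusted p = 0.0340). The groups did not overlap, although TG1 was just above WT4. The call held without TG1, TG3 or WT4 and was lost without any one of the other mice. *Ifngr1*, its binding chain, was at 24.2, 29.6, 34.8, 32.4 and 48.1 FPKM in TG1 to TG5 and at 24.9, 22.4, 15.7, 23.4 and 24.8 in WT1 to WT5 (log2 fold change 0.60, standard error 0.19, adjusted p = 0.0826), and TG1 was within the range of the WT mice. *Ifnlr1*, the chain of the type III receptor, was at 3.90, 5.61, 5.29, 4.55 and 8.30 FPKM in TG1 to TG5 and at 3.43, 3.81, 2.83, 2.84 and 2.83 in WT1 to WT5 (log2 fold change 0.81, standard error 0.22, adjusted p = 0.0519), higher in all HSD17B1TG mice than in all WT mice. *Il10rb*, which the type III receptor shares with the interleukin-10 receptor, was at 7.27, 9.66, 7.43, 12.1 and 15.98 FPKM in TG1 to TG5 and at 5.12, 5.58, 5.02, 8.33 and 7.39 in WT1 to WT5 (log2 fold change 0.73, standard error 0.25, adjusted p = 0.0946). TG1 and TG3 were below WT4. The type I receptor is a pair of chains, and both had log2 fold changes below 0 that did not pass the adjusted test. *Ifnar1* was at 11.4, 12.1, 11.7, 11.7 and 14.0 FPKM in TG1 to TG5 and at 14.2, 13.2, 15.1, 10.8 and 14.3 in WT1 to WT5 (log2 fold change -0.15, standard error 0.12, adjusted p = 0.458). *Ifnar2* was at 9.41, 7.17, 6.85, 9.80 and 6.87 FPKM in TG1 to TG5 and at 10.7, 9.01, 12.3, 8.65 and 11.6 in WT1 to WT5 (log2 fold change -0.39, standard error 0.16, adjusted p = 0.162). Both overlapped between the groups.

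Of the signal carriers *Jak1*, *Jak2*, *Tyk2* and *Stat3*, none passed the adjusted test. Those nearest to the threshold were *Tyk2* at 0.36 (standard error 0.14, adjusted p = 0.149) and *Jak1* at -0.44 (standard error 0.19, adjusted p = 0.167), and they lay on opposite sides of 0. *Tyk2* was at 7.46, 9.83, 8.50, 9.99 and 11.2 FPKM in TG1 to TG5 and at 7.72, 5.74, 7.10, 7.58 and 8.43 in WT1 to WT5, and *Jak1* at 29.1, 24.7, 21.6, 27.2 and 23.9 and at 29.9, 28.8, 50.7, 26.8 and 34.7. The groups overlapped in both genes. *Jak2* and *Stat3* had log2 fold changes of 0.04 and 0.35.

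*Irf7* (ENSMUSG00000025498, chromosome 7 from 141262706 to 141266481), the transcription factor that interferon induces and that in turn drives type I interferon genes, had a log2 fold change close to that of *Oas2*, the highest of the 50 genes. It was at 14.6, 29.9, 34.2, 51.3 and 92.9 FPKM in TG1 to TG5 and at 3.47, 3.35, 3.46, 9.64 and 2.62 in WT1 to WT5 (log2 fold change 3.31, standard error 0.53, adjusted p = 0.0177). TG1 was above WT4, and TG5 was the highest mouse, as in most of the interferon-stimulated genes. Without any one mouse its log2 fold change was 2.85 to 3.78, and the call was lost only without WT2. *Irf9*, which joins STAT2 in the ISRE-binding complex, was at 10.4, 15.7, 14.6, 14.4 and 23.7 FPKM in TG1 to TG5 and at 8.30, 7.35, 11.2, 12.3 and 7.46 in WT1 to WT5 (log2 fold change 0.75, standard error 0.23, adjusted p = 0.0715). *Irf1*, a factor induced by type II interferon, was at 18.8, 25.2, 21.8, 17.5 and 30.7 FPKM in TG1 to TG5 and at 15.8, 12.6, 15.0, 18.0 and 15.6 in WT1 to WT5 (log2 fold change 0.56, standard error 0.17, adjusted p = 0.0665). In both genes a single HSD17B1TG mouse lay below WT4, TG1 in *Irf9* and TG4 in *Irf1*. The other four, *Irf2*, *Irf3*, *Irf5* and *Irf8*, had log2 fold changes of -0.32 to 0.60 with adjusted p of 0.0714 to 0.454.

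Of the sensors and adaptors upstream, *Ikbke* (ENSMUSG00000042349, chromosome 1 from 131254343 to 131279606), a kinase that phosphorylates IRF3 and IRF7, rose with 4.84, 6.64, 5.17, 5.65 and 6.81 FPKM in TG1 to TG5 and 3.09, 2.94, 3.66, 2.72 and 3.56 in WT1 to WT5 (log2 fold change 0.86, standard error 0.14, adjusted p = 0.0180). The groups did not overlap, the difference was under 2-fold, and the adjusted p was not under 0.05 without TG2, TG5 or WT2. *Tmem173* (STING), the adaptor of the DNA sensor cGAS, was at 30.3, 86.7, 82.6, 66.3 and 115 FPKM in TG1 to TG5 and at 33.1, 10.3, 13.6, 56.9 and 15.0 in WT1 to WT5 (log2 fold change 1.57, standard error 0.49, adjusted p = 0.0780). TG1 was below WT1 and WT4. The other eight ran from -0.83 in *Mb21d1*, the gene of cGAS itself, to 0.82 in *Tlr3*, with adjusted p of 0.124 to 0.950, and the others in this range were *Tlr7*, *Tlr9*, *Ticam1*, *Myd88*, *Mavs* and *Tbk1*. The negative regulators showed no difference that passed the adjusted test, and 0 of 6 had an unadjusted p under 0.05 in edgeR, against 26.1% of all genes. *Socs1*, the inhibitor of JAK kinases, was at 5.33, 5.06, 6.12, 1.68 and 1.90 FPKM in TG1 to TG5 and at 5.96, 5.18, 4.18, 11.04 and 4.65 in WT1 to WT5 (log2 fold change -0.63, standard error 0.41, adjusted p = 0.362). *Pias4* was at 9.51, 10.5, 10.4, 10.2 and 9.63 FPKM in TG1 to TG5 and at 9.62, 8.23, 9.28, 7.53 and 9.37 in WT1 to WT5 (log2 fold change 0.18, standard error 0.11, adjusted p = 0.321). The groups overlapped in both. The other four, *Socs3*, *Ptpn2*, *Ptpn6* and *Pias1*, had log2 fold changes of -0.22 to 0.08 with adjusted p of 0.596 to 0.953.

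**Figure D5:**
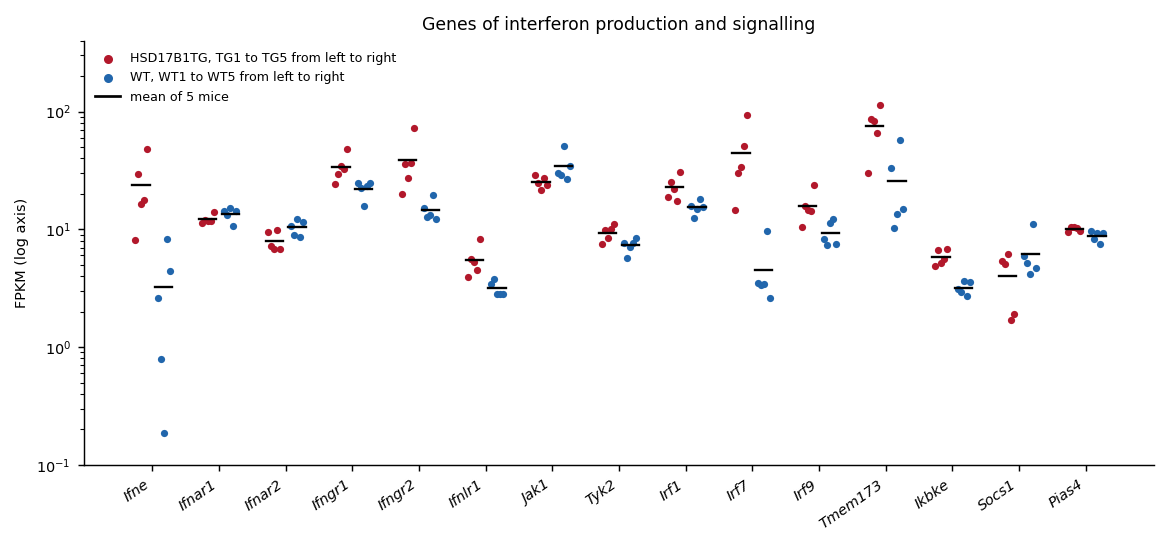
FPKM (log axis) of 15 genes of interferon production and signalling in each mouse. Red points are the HSD17B1TG mice, blue points the WT mice, each in the order of their numbers, and black lines the means of 5 mice. *Irf7*, *Ifngr2*, *Ifnlr1* and *Ikbke* are higher in all HSD17B1TG than in all WT mice, while the groups overlap in *Ifnar1*, *Ifnar2* and *Jak1*.

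Markers of other cells differed in both directions beside these genes. Of the stromal markers, *Pdgfra* fell (log2 fold change -1.99, standard error 0.36, adjusted p = 0.0219) and *Thy1* fell (log2 fold change -2.08, standard error 0.51, adjusted p = 0.0415). The other four did not pass the adjusted test, with log2 fold changes of -1.18 in *Col1a1*, which was lower without overlap and called down in DESeq2, -0.65 in *Col1a2*, -0.10 in *Dcn* and 0.51 in *Lum*, and the sum of the 6 was 462 to 1820 FPKM in HSD17B1TG and 1284 to 1760 FPKM in WT. Of the markers of natural killer and T cells, *Nkg7* fell (log2 fold change -3.35, standard error 0.67, adjusted p = 0.0260) and *Ncr1* fell (log2 fold change -2.70, standard error 0.55, adjusted p = 0.0268). Of the others, *Klrb1c*, *Cd3g* and *Cd3d* had log2 fold changes of -2.54, -1.16 and -0.21 and did not pass, and *Cd3e* did not have enough counts to be tested, with 0.164 FPKM on average in HSD17B1TG and 0.0831 in WT. The sum of the 6 was 2.55 to 5.51 FPKM in HSD17B1TG and 5.38 to 32.2 FPKM in WT. *Laptm5*, a marker of all leucocytes, rose (log2 fold change 1.28, standard error 0.28, adjusted p = 0.0312). The other five of its list had log2 fold changes below 0 and did not pass the adjusted test, namely *Cd52* at -1.37, *Ptprc* at -1.08, *Coro1a* at -0.90, *Lcp1* at -0.46 and *Cd53* at -0.17, and 3 of them had an unadjusted p under 0.05. In DESeq2 2 of the list were called down. The sum of the 6 was 48.7 to 77.6 FPKM in HSD17B1TG and 42.0 to 81.1 FPKM in WT. *Cd68*, a macrophage marker, also rose (log2 fold change 1.58, standard error 0.32, adjusted p = 0.0269), and the other five of its list had log2 fold changes of -0.02 to 0.46 and did not pass, with sums of 152 to 247 and 117 to 184 FPKM. In both genes TG1 was the only HSD17B1TG mouse below the highest WT mouse. Of 6 markers of plasmacytoid dendritic cells, cells known for the release of type I interferon, *Siglech* rose without overlap (0.686 ± 0.218 FPKM in HSD17B1TG against 0.197 ± 0.0832 FPKM in WT (SD, n = 5 each); log2 fold change 1.78, standard error 0.39, adjusted p = 0.0322). Its level stayed under 1 FPKM in every mouse, and *Ccr9*, *Cox6a2*, *Pacsin1* and *Cd300c* did not have enough counts to be tested, with up to 2 of the 6 at 0 in an HSD17B1TG and up to 3 in a WT mouse. The sum of the 6 was 2.73 to 4.43 FPKM in HSD17B1TG and 0.629 to 484 FPKM in WT, of which *Klk1*, a kallikrein, made up 150 FPKM in WT4 and 483 FPKM in WT5. *Klk1*, the other marker of this list that was tested, had a log2 fold change below 0 (-5.76, standard error 1.94, adjusted p = 0.0922) and was called down in DESeq2. This direction rests on WT4 and WT5. In WT1 to WT3 *Klk1* was at 0.151, 0.489 and 0.173 FPKM, below all HSD17B1TG mice (1.44 to 3.31). Its median was 2.25 FPKM in HSD17B1TG against 0.489 in WT (exact permutation p = 0.444). None of the smooth muscle markers passed the adjusted test. Their summed level was 429 to 3799 FPKM in HSD17B1TG and 232 to 3167 FPKM in WT, highest in TG1 and in WT4, the mice without which the calls were most numerous. Neutrophil and endothelial markers had no adjusted p under 0.05 in edgeR, while DESeq2 called *S100a9* of the former up and *Emcn* of the latter down. The tested neutrophil markers *S100a9*, *Ly6g* and *Csf3r* had log2 fold changes of 3.20, 2.12 and 0.53. Of the endothelial markers *Cldn5* was at 1.19, and *Emcn*, *Cdh5*, *Tek*, *Kdr* and *Pecam1* were at -1.36 to -0.55. The sums of the neutrophil and endothelial markers were 7.27 to 12.4 and 25.9 to 104 FPKM in HSD17B1TG against 0.601 to 4.32 and 46.1 to 103 FPKM in WT. *Retnlg*, a neutrophil marker, was at 0 in all mice but TG1. The defining markers *Krt8*, *Col1a1* and *Myh11* of epithelium, stroma and smooth muscle were present in every library, and the part of these cells in the differences of the interferon-stimulated genes was not tested.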

How the data were processed

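RNA from the uteri of 10 mice was read in pairs of 150 bp. HISAT2 2.0.5 was used by the authors for mapping to the mouse genome with Ensembl 94, and the deposited counts are raw numbers per gene and library. How the reads were counted, and whether by strand, is not given in the sources used here. Of the 50 genes, 18 overlap another gene in GENCODE M21, in which 49 have the coordinates of the table. The FPKM deposited by the authors use the gene length and 1 size factor per mouse, so they are scaled between mice. Deposited fold changes, log2 values, p-values and enrichments are the authors' comparisons and were not used.

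Groups follow the genotype that the labels give for each mouse. The test was edgeR 4.0.16 (R 4.3.3; filterByExpr, TMM, quasi-likelihood, Benjamini-Hochberg over 16993 genes). Alternatives were DESeq2 1.42.0, limma 3.58.1 with voom, other scalings, filters and thresholds, and leaving out a single mouse. A count of 3 in the shallowest library is 0.202 CPM, for counting error only. Per-mouse values are given for each gene called, the 2 smallest p of each role, the gene nearest to 0 and the lowest, and for pathway genes likewise with *Irf9*, *Ifne* and the receptor chains. The rest are given as ranges. Where other genes are given by mouse, they were chosen after their values were seen. The 50 genes and all lists were chosen with earlier results of these data known.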

Additional observations from a re-analysis of the deposited data

Results flagged for a closer look

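In 130 groups of 5 mice, 1 gene in 1 genotype each, the highest or lowest mouse stood apart from the others by Dixon's criterion in 24, a criterion that chance meets in about 1 group in 20. The genes share mice, so these are not independent.

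The mouse was WT4 in 13 of the 24, each time as the highest WT mouse. It was at 20.1 FPKM in *Oas2* (next WT mouse 4.80), 9.51 in *Oasl1* (1.82), 10.6 in *Oasl2* (4.79), 23.0 in *Trim25* (13.9), 6.23 in *Dhx58* (2.35), 12.1 in *Irgm1* (7.49) and 7.99 in *Parp14* (5.82). It was at 4.03 FPKM in *Ifi44* (1.16), 18.2 in *Rtp4* (7.19), 5.94 in *Trim30a* (2.68), 71.6 in *Lgals3bp* (36.9), 9.64 in *Irf7* (3.47) and 11.04 in *Socs1* (5.96). All but *Socs1* were genes with a higher mean in HSD17B1TG.

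TG5 stood apart in 6 genes, again as the highest of its group. It was at 40.0 FPKM in *Oasl2* (next HSD17B1TG mouse 17.1), 11.8 in *Usp18* (4.43), 22.4 in *Gbp3* (10.1), 21.7 in *Igtp* (10.7), 13.3 in *Ifi44* (4.89) and 14.0 in *Ifnar1* (12.1). TG1 stood apart only in *Bst2*, with 646 FPKM against 328 in the next mouse. WT5 did so in *Rsad2* (2.74 FPKM, next 1.20) and *Samhd1* (9.49, next 6.68). WT3 was the highest in *Gbp7* (7.52, next 5.21) and the lowest in *Ifngr1* (15.7, next 22.4).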

How the results depend on the processing

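With all 10 mice, the number of interferon-stimulated genes called up was 26 with DESeq2's Wald test (4.48% of all genes), 12 with limma voom (2.30%) and 10 with a fold change over 1.5 (3.01%), and 5 or 6 under the other scalings and filters (0.998 to 2.20%) and with no FPKM minimum. All 6 genes called with TMM were also called by DESeq2 and limma voom. An adjusted p under 0.05 was reached by 32 genes in DESeq2 (13.9% of all genes in either direction) and by 8 to 15 in the other fits with all mice (2.88 to 7.03%). Upper quartile scaling and library size alone lost the call of *Sp100*. Library size alone moved the median log2 fold change of all genes to -0.17 and that of the 50 genes to 0.85. Pathway genes called were 4 in DESeq2.

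With 1 mouse left out, 1 to 26 genes were called up (0.219 to 5.12% of all genes) and 0 down, 1 to 30 had an adjusted p under 0.05 (0.439 to 13.8% in either direction), 6 to 27 did not overlap (7.33 to 15.4% in either direction), the median log2 fold change was 0.79 to 1.23, and 0 to 4 pathway genes were called. The cause was not tested. The direction of *Gbp7* turned under upper quartile scaling (-0.060), library size alone (-0.16) and no filter (-0.013), and with 1 mouse left out it was -0.054 to 0.17. *Herc6* also turned under these 3 settings. No other gene of the 50 changed direction under the settings with all 10 mice.

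No paired analysis was possible because the labels give numbers whose meaning is not stated, and no replicate numbers. The last number in the label repeats within both groups, and 1 value of it (TG1 and WT4) is shared between them. No gene of the 50 had fewer than 7 counts in any mouse, while *Ifng*, *Ifnk* and *Ifnz* had too few counts to be tested.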
